A study of Mus musculus with 17 samples.

Results

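The 35 genes described here encode the hypoxia response and glycolysis of mouse skin, and they were taken by name as 35 of the 34140 genes in the deposited expression table. The glycolytic enzyme genes Pfkm, Aldoa, Pgam2 and Eno3 were classed as muscle forms and left out, so Aldoc is the only aldolase in the list. The list holds glucose transporters and hexokinases (Slc2a1, Slc2a3, Hk1, Hk2), glycolytic enzymes (Gpi1, Pfkl, Pfkp, Pfkfb3, Pfkfb4, Aldoc, Tpi1, Gapdh, Pgk1, Pgam1, Eno1, Pkm), enzymes and a transporter of pyruvate and lactate (Ldha, Pdk1, Slc16a3) and genes known to respond to low oxygen (Adm, Egln1, Egln3, Vegfa, Bnip3, Bnip3l, Ankrd37, Ndrg1, Ddit4, P4ha1, P4ha2, Car9, Hif1a, Higd1a, Kdm3a, Mxi1).

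The study concerns how injured skin heals after ionizing radiation. Skin of C57/BL6j mice was taken 0, 3, 6 or 9 days after injury, either without radiation (control) or with ionizing radiation (irradiated), and each sample gave 1 library of its RNA, amplified by the Smart-Seq2 method and read as paired ends. The 17 libraries were 2 control libraries at day 0, 2 at day 3, 2 at day 6 and 3 at day 9, and 3 irradiated libraries at day 3, 2 at day 6 and 3 at day 9. No irradiated day 0 group is among them, so the irradiated arm was compared with the control arm only on the same day. The dose and timing of radiation, the kind of injury, the animals' age, and whether each library came from a separate animal are not stated in the labels, and the p-values below therefore measure the spread between these samples.

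Values are FPKM, fragments scaled to exon length and library size. The length that fits most genes is that of all their annotated exons together, so levels of different genes can be set side by side only roughly. Differences are given as log2 of (FPKM + 1), which understates the change of genes with low values, with limma-trend's standard error and its p-value adjusted over all 15271 genes tested. A gene passed at an adjusted p under 0.05, and all 35 genes were among those tested. The recovered number of fragments behind a member's value ran from 34 (Car9) to 53925 (Pkm), in libraries of 25440773 to 30797408 assigned fragments.

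As background, cells sense oxygen through hydroxylases, among them the enzymes encoded by Egln1 and Egln3, which mark the alpha subunits of hypoxia-inducible factor (HIF) for breakdown. When oxygen is short, HIF is stable, pairs with the Arnt protein and turns on genes for glucose uptake, glycolysis, lactate production, blood vessel growth and the removal of mitochondria. In healing skin the same genes are also known to be active in the moving keratinocytes and in the white blood cells of the wound, which rely on glycolysis.

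The HIF pair binds DNA at short sites with the core ACGTG or GCGTG. The 250 bases before the start site were therefore searched for these letters on both strands (on the other strand they read CACGT and CACGC) in the RefSeq promoter table of GRCm38.p6. A CACGTG run counts as 2 matches, since CACGT and ACGTG overlap in it. Of the 35 genes, 32 had an entry, while Slc2a3, Bnip3l and Ndrg1 had none. Of these 32 genes, 30 (93.8%) held a match in at least 1 of their start sites, against 41.5% of the 27025 genes of the table. ACGTG alone stood in 19 of 32 (59.4%), against 18.5% of all genes. A gene with more start sites has more places for a match. Counted by start site, 80% of the members' 45 held either core, against 38.6% of all 32851. For ACGTG these shares were 46.7% and 16.6%. Both cores contain a CG pair, and CG pairs numbered a median of 14 in the members' windows against 6 in all windows, whose part in this difference was not tested. The 5 printed below belong to the 5 genes with the largest difference between irradiated and control skin at day 9. The sequences run 5′ to 3′ and end at the base before the start site, with the matched letters in capitals.
Adm promoter (chr7:110627407-110627656, plus strand): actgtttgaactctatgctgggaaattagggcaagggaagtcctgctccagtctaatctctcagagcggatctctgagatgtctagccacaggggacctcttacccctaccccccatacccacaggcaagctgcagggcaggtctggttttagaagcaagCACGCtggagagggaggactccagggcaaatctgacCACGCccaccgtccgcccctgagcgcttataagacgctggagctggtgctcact
Slc2a1 promoter (chr4:119108495-119108744, plus strand): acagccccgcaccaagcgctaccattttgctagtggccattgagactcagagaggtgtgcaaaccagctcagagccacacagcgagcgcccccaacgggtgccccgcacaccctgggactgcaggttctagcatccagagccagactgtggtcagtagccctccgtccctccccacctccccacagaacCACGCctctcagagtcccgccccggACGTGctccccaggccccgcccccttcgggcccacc
Egln3 promoter (chr12:54203875-54204124, minus strand): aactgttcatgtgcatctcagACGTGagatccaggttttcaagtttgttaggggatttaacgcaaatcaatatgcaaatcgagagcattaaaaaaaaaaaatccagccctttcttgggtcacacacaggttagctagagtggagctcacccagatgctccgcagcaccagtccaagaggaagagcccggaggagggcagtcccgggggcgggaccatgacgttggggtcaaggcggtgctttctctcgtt
Car9 promoter (chr4:43506776-43507025, plus strand): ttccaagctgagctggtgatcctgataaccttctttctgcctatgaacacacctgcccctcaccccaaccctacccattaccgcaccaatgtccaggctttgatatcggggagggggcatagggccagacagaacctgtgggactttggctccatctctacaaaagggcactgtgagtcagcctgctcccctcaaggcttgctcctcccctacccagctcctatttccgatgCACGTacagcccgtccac
Bnip3 promoter (chr7:138909507-138909756, minus strand): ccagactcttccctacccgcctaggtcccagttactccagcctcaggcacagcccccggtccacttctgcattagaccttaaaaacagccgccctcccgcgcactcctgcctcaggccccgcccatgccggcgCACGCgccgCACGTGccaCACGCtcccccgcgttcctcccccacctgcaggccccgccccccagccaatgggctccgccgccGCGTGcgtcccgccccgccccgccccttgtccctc

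These 5 windows differ in how many matches they hold and where. Adm has CACGC at 90 and 54 bases before the start, and Slc2a1 has CACGC at 61 and ACGTG at 36. Egln3 has 1 match, ACGTG at 229 bases before the start, and Car9 has 1, CACGT at 18. Bnip3 has CACGC at 117 and at 99, the overlapping CACGT and ACGTG at 108 and 107, and GCGTG at 35. A match is only a run of letters, and binding was not measured. All 12 members that passed at day 9 held either core, as did 18 of the 20 members with an entry that did not pass, while ACGTG was in 6 of those 12 and in 13 of those 20.

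At day 9 the irradiated skin held more RNA of 12 of the 35 genes than the control skin, and less of none. The 12 were Adm, Slc2a1, Egln3, Car9, Bnip3, Pfkl, Pfkp, Pgam1, Eno1, Gapdh, Pgk1 and Pdk1. Over all genes tested, 5.38% passed on that day, 2.33% as higher and 3.05% as lower. The median log2 difference was 0.45 over the members and 0.02 over all genes, and 31 of the 35 had a positive sign. In 23 of the 35 every irradiated library lay above every control library, as in 16.8% of all genes, and in 0 of 35 every one lay below, as in 17.2% of all genes. In whole skin, more RNA per cell and more cells of a type that uses these genes cannot be told apart.

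**Figure D1:**
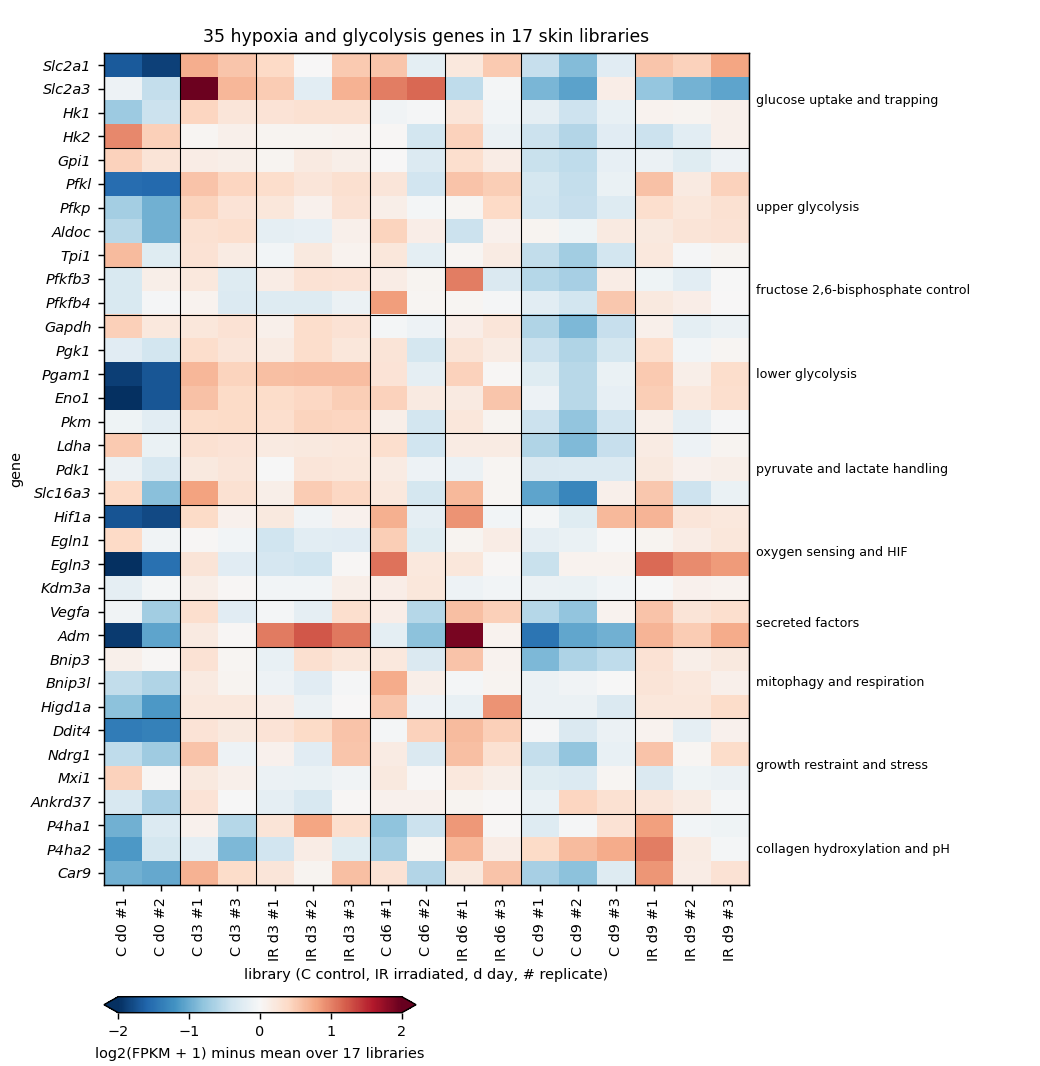
Level of each of the 35 genes in each of the 17 libraries, with genes in rows by role, libraries in columns by day and arm, and colour for log2(FPKM + 1) relative to the gene's mean over the libraries. The control libraries of day 9 are low for most glycolytic genes beside the irradiated libraries of the same day, and the day 0 libraries are low for Slc2a1, Eno1, Pgam1, Pfkl and Hif1a.

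Of the 2 secreted factors, Adm passed at day 9. Adm encodes adrenomedullin, a peptide that widens and protects blood vessels. In control skin, Adm stood at 2.19 and 4.78 FPKM at day 0, 12.6 and 11.3 at day 3, 9.56 and 5.85 at day 6, and 3.37, 4.85 and 5.17 at day 9. After irradiation Adm read 23.6, 27.5 and 23.9 FPKM at day 3, 43.99 and 11.6 at day 6, and 18.4, 16.1 and 19.1 at day 9. Every irradiated library was above every control library of its day, with the 2 irradiated day 6 libraries far apart. The log2 difference at day 9 was 1.80 (SE 0.369, adjusted p = 0.0204). Averaged over the 3 days it was 1.43 (SE 0.238, adjusted p = 0.00378), the smallest p of the 35 in that comparison, and it passed under all 26 alternative settings tried (adjusted p from 0.000204 to 0.0161).

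Vegfa encodes the growth factor that drives the sprouting of blood vessels. In control skin, Vegfa stood at 22.5 and 14.2 FPKM at day 0, 30.2 and 20.1 at day 3, 26.1 and 15.6 at day 6, and 15.5, 13.3 and 24.8 at day 9. After irradiation Vegfa read 23.04, 20.6 and 30.2 FPKM at day 3, 36.4 and 33.3 at day 6, and 35.4, 28.6 and 30.05 at day 9. The arms did not overlap at day 6 or day 9 and overlapped at day 3. Vegfa did not pass on any day: its log2 difference was -0.02 (adjusted p = 0.994) at day 3, 0.76 (adjusted p = 0.292) at day 6 and 0.82 (adjusted p = 0.0867) at day 9.

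Of the 4 genes of glucose uptake and trapping, 1 was higher in irradiated than in control skin at day 9, and the median log2 difference was 0.28. Slc2a1 encodes GLUT1, the glucose transporter of most growing cells (chr4:119108711-119137983 in mm10). In control skin, Slc2a1 stood at 15.1 and 13.2 FPKM at day 0, 84.4 and 74.9 at day 3, 74.98 and 43.8 at day 6, and 36.3, 27.2 and 43.2 at day 9. After irradiation Slc2a1 read 67.3, 50.95 and 73.3 FPKM at day 3, 58.7 and 72.9 at day 6, and 75.02, 69.8 and 88.1 at day 9. At day 9 the lowest irradiated library was above the highest control library, whereas at day 3 all 3 irradiated libraries were below both control libraries. The log2 difference was 1.12 (SE 0.213, adjusted p = 0.0144) at day 9 and -0.33 (adjusted p = 0.692) at day 3.

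Slc2a3 encodes GLUT3, a transporter of high affinity used by neurons and white blood cells, and it ran the other way. Its levels were 4.96 to 13.5 FPKM in control and 2.24 to 5.09 in irradiated skin at day 3, and 6.59 to 7.26 against 1.64 to 2.65 at day 6. By day 9 they were 0.776 to 3.11 against 0.797 to 1.18. The arms were apart at day 6 and overlapped at day 3 and day 9. Averaged over the days it was lower after irradiation, with a log2 difference of -0.88 (SE 0.234, adjusted p = 0.0429), though 15 of 26 alternatives lost this call (adjusted p up to 0.133). Hk1 and Hk2 encode the hexokinases that trap glucose in the cell, and their log2 differences at day 9 were 0.32 (adjusted p = 0.0897) and 0.23 (adjusted p = 0.478).

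Upper glycolysis had 2 of 5 genes higher at day 9, the liver and platelet forms of phosphofructokinase, the enzyme of the committing step. In control skin, Pfkl (chr10:77986947-78010083) stood at 4.68 and 4.53 FPKM at day 0, 23.2 and 20.97 at day 3, 18.3 and 11.5 at day 6, and 11.8, 10.8 and 13.9 at day 9. After irradiation Pfkl read 19.9, 18.2 and 19.3 FPKM at day 3, 23.2 and 22.02 at day 6, and 23.4, 17.5 and 21.5 at day 9. The 3 irradiated day 9 libraries were all above the 3 controls, and the log2 difference was 0.73 (SE 0.148, adjusted p = 0.0199). Pfkl also passed as higher when the days were averaged, at 0.38 (SE 0.0955, adjusted p = 0.0343), a call that 14 of 26 alternatives lost (adjusted p up to 0.0998).

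In control skin, Pfkp (chr13:6579768-6648777) stood at 6.29 and 4.95 FPKM at day 0, 14.8 and 12.98 at day 3, 11.7 and 10.4 at day 6, and 8.03, 7.43 and 8.73 at day 9. After irradiation Pfkp read 12.7, 11.3 and 13.2 FPKM at day 3, 11 and 14.4 at day 6, and 13.6, 12.7 and 13.4 at day 9. Its day 9 groups were each tight and far apart, and the log2 difference of 0.65 (SE 0.110, adjusted p = 0.00946) had the smallest p of the 35 on that day. The gene Pitrm1 overlaps Pfkp in position and shares near-identical bases with it, at a mean of 11.9 FPKM against 11.03 for Pfkp itself, and how fragments of shared bases were assigned is not given in the sources used here. Tpi1, Gpi1 and Aldoc, which encode triose phosphate isomerase, the isomerase of glucose phosphate and aldolase C, had log2 differences of 0.59 (adjusted p = 0.0901), 0.22 (adjusted p = 0.250) and 0.20 (adjusted p = 0.442). Pfkfb3 and Pfkfb4 encode the enzymes that set the level of fructose 2,6-bisphosphate, the activator of phosphofructokinase, and differed by 0.26 and 0.13 without passing.

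Lower glycolysis had 4 of 5 genes higher at day 9, with a median log2 difference of 0.58. Their summed level was 529.6 to 680.0 FPKM in the 3 control libraries and 826.6 to 1046.2 in the 3 irradiated libraries of day 9, whereas at day 3 the 2 arms overlapped at 1067.6 to 1138.2 and 1048.5 to 1130.8. Eno1 encodes enolase 1 (chr4:150236721-150248879). In control skin, Eno1 stood at 36.7 and 49.6 FPKM at day 0, 246 and 215 at day 3, 227 and 185 at day 6, and 153, 111 and 146 at day 9. After irradiation Eno1 read 213, 219 and 231 FPKM at day 3, 185 and 241 at day 6, and 232, 191 and 208 at day 9. Its irradiated libraries ranged from 185 to 241 FPKM over the 3 days, all 3 control libraries of day 9 were below that range, and the log2 difference at day 9 was 0.63 (SE 0.157, adjusted p = 0.0415).

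Pgam1 encodes phosphoglycerate mutase 1 (chr19:41911871-41918664). In control skin, Pgam1 stood at 27.7 and 31.3 FPKM at day 0, 165 and 142 at day 3, 126 and 92.4 at day 6, and 88.03, 70.6 and 95.3 at day 9. After irradiation Pgam1 read 159, 160.2 and 160.2 FPKM at day 3, 144 and 106 at day 6, and 150.3, 114 and 134 at day 9. The arms overlapped at day 3 and day 6 and were apart at day 9, where the log2 difference was 0.64 (SE 0.160, adjusted p = 0.0410). Pgk1, which encodes the first enzyme of the path to yield ATP, was at 162 to 192 FPKM in control and 236 to 311 in irradiated skin at day 9, a log2 difference of 0.57 (SE 0.150, adjusted p = 0.0480). Pkm encodes pyruvate kinase, and its day 9 ranges of 157 to 206 and 238 to 294 FPKM did not overlap, with a log2 difference of 0.50 (adjusted p = 0.0553) that missed the threshold.

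Gapdh, which encodes glyceraldehyde-3-phosphate dehydrogenase and is often used as a reference gene, was not constant over these libraries (chr6:125161715-125166467). In control skin, Gapdh stood at 77.1 and 64.3 FPKM at day 0, 64.9 and 67.5 at day 3, 53.9 and 51.3 at day 6, and 36.3, 29.1 and 39.9 at day 9. After irradiation Gapdh read 59.4, 70.7 and 68.1 FPKM at day 3, 60.6 and 65.7 at day 6, and 59.1, 48.4 and 50.8 at day 9. All 3 control day 9 libraries were below all the other 14 libraries, and the day 9 log2 difference was 0.58 (SE 0.123, adjusted p = 0.0226). These levels are uncertain, because 43 annotated genes match at least 300 bases of Gapdh transcripts at 95% identity or more. Of these, 41 are in the table, and they held 54.4% to 64.7% of the fragments assigned to Gapdh and its copies in every library, with the highest, Gm5559, at a mean of 169.0 FPKM against 56.9 for Gapdh. Summing Gapdh and its copies left the arms apart at day 9, at 292.7 to 404.5 CPM (fragments scaled to library size) in control and 471.1 to 562.4 in irradiated skin. Among the other members with such copies, Eno1 (4 in the table, summed 20.4 FPKM against 181.7) and Bnip3l (1, at 13.3 against 62.0) had the highest summed FPKM of such copies.

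Of the 3 genes for the fate of pyruvate and lactate, Pdk1 passed. Pdk1 encodes a kinase that switches off pyruvate dehydrogenase, the enzyme that feeds pyruvate into the citrate cycle, and it was at 8.38, 8.46 and 8.39 FPKM in control and 12.1, 11.1 and 11.3 in irradiated skin at day 9, a log2 difference of 0.41 (SE 0.0913, adjusted p = 0.0270). Ldha encodes lactate dehydrogenase A, the most abundant member by FPKM. It was at 232, 190.3 and 257 FPKM in control and 396, 328 and 368 in irradiated skin at day 9. The arms did not overlap, and the log2 difference of 0.69 (adjusted p = 0.0600) missed the threshold. Slc16a3, which encodes the lactate exporter MCT4, overlapped between arms at 6.75 to 19.7 and 13.5 to 26.9 FPKM, with a log2 difference of 0.75 (adjusted p = 0.292).

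Among the 4 genes of oxygen sensing, Egln3 was higher in irradiated than in control skin at day 9 and Hif1a did not pass. Egln3 encodes PHD3, a hydroxylase that HIF itself induces (chr12:54178981-54203860). In control skin, Egln3 stood at 20.2 and 29.4 FPKM at day 0, 101 and 71.9 at day 3, 179.6 and 97.1 at day 6, and 61.4, 88.9 and 88.2 at day 9. After irradiation Egln3 read 66.2, 63.8 and 85.1 FPKM at day 3, 98.6 and 85.9 at day 6, and 186, 162 and 153 at day 9. Of all other libraries, only replicate 1 of control day 6 reached the range of the irradiated day 9 libraries. At day 9 the log2 difference was 1.08 (SE 0.238, adjusted p = 0.0258).

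Hif1a encodes the alpha subunit itself (chr12:73901375-73947530), whose control is known to lie mainly in protein stability, which RNA does not show. In control skin, Hif1a stood at 13.7 and 13.1 FPKM at day 0, 62.9 and 51.03 at day 3, 78.7 and 42.04 at day 6, and 46.5, 40.2 and 75.9 at day 9. After irradiation Hif1a read 54.7, 45.4 and 51.1 FPKM at day 3, 89.9 and 45.9 at day 6, and 77.1, 56.8 and 55.7 at day 9. The arms overlapped on each of the 3 days, and the log2 difference was 0.26 (adjusted p = 0.643) at day 9 and 0.08 (adjusted p = 0.844) averaged over the days. Egln1, which encodes the main hydroxylase PHD2, and Kdm3a, which encodes a histone demethylase, differed by 0.25 (adjusted p = 0.384) and 0.15 (adjusted p = 0.235) at day 9.

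**Figure D2:**
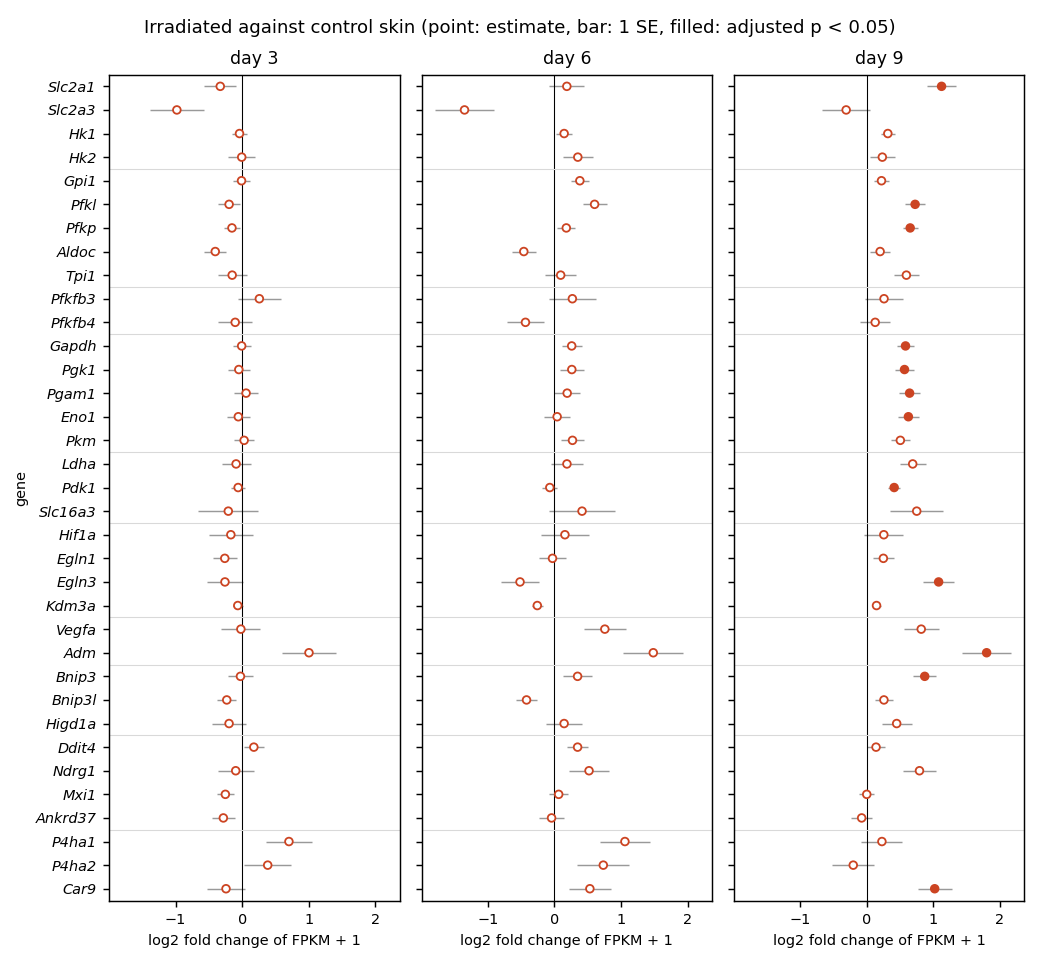
Log2 difference between irradiated and control skin for each of the 35 genes at day 3, day 6 and day 9, on the log2(FPKM + 1) scale, with bars of 1 standard error from limma-trend and filled points where the adjusted p was under 0.05. No point is filled at day 3 or day 6, and 12 are filled at day 9, led by Adm at 1.80.

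Of the genes for the removal of mitochondria and for respiration, Bnip3 passed. Bnip3 and Bnip3l encode proteins of the mitochondrial surface that call in autophagy. In control skin, Bnip3 (chr7:138890836-138909519) stood at 30.8 and 29.2 FPKM at day 0, 35.2 and 29.3 at day 3, 33.4 and 23.3 at day 6, and 14.96, 18.2 and 19.9 at day 9. After irradiation Bnip3 read 25.7, 36.1 and 33.8 FPKM at day 3, 42.8 and 29.97 at day 6, and 35.1, 31.1 and 32.8 at day 9. The 3 control day 9 libraries were the lowest of the 17, and the log2 difference at day 9 was 0.87 (SE 0.174, adjusted p = 0.0179). Higd1a, which encodes a partner of the respiratory chain, and Bnip3l differed by 0.45 (adjusted p = 0.259) and 0.26 (adjusted p = 0.261), each without overlap between the arms.

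Car9 encodes carbonic anhydrase 9, a surface enzyme that handles acid and is a common tissue marker of low oxygen (chr4:43506966-43513729). In control skin, Car9 stood at 0.580 and 0.524 FPKM at day 0, 4.004 and 3.001 at day 3, 2.76 and 1.06 at day 6, and 0.945, 0.749 and 1.58 at day 9. After irradiation Car9 read 2.64, 2.19 and 3.66 FPKM at day 3, 2.54 and 3.57 at day 6, and 4.69, 2.40 and 2.79 at day 9. Its levels are low, yet the arms were apart at day 9, with a log2 difference of 1.02 (SE 0.253, adjusted p = 0.0401). P4ha1 and P4ha2 encode subunits of the enzyme that hydroxylates collagen, and their day 9 differences were 0.23 (adjusted p = 0.704) and -0.20 (adjusted p = 0.747). P4ha1 was above control in all irradiated libraries at day 3 (14.04 to 22.8 against 25.8 to 37.6 FPKM) and at day 6 (11.9 to 15.5 against 21.7 to 39.6), but it passed on neither day, at 0.70 (adjusted p = 0.476) and 1.06 (adjusted p = 0.231).

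None of the 4 growth-restraint and stress genes passed at day 9. Ndrg1, which encodes a protein of stressed and differentiating cells, differed by 0.79 (adjusted p = 0.0779). Ddit4, which encodes an inhibitor of the growth kinase mTOR, differed by 0.14 (adjusted p = 0.565). Mxi1, which encodes an antagonist of Myc, differed by less than 0.01 (adjusted p = 1), and Ankrd37 by -0.08 (adjusted p = 0.809).

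The number of day 9 calls depended on single libraries. The members' median log2 difference ranged from 0.42 (without control replicate 2) to 0.52 (without control replicate 3) when 1 library was left out, against 0.45 with all. Without control replicate 2 or without irradiated replicate 3 none of the 12 passed, and 2, 4 and 6 passed without control replicate 1, irradiated replicate 1 and irradiated replicate 2, while the calls over all genes fell from 822 to 120, 94, 232, 561 and 348 in the same order. Without control replicate 3, 12 passed, and with library quality weights 25 did, 36.7% of all genes passing there.

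Summed levels of some cell type markers were also apart between the arms at day 9, and their part in these differences was not tested. The 4 keratin genes of wound-edge keratinocytes (Krt6a, Krt6b, Krt16, Krt17) summed to 2752.7 to 6450.7 FPKM in control and 8656.9 to 10006.6 in irradiated skin at day 9, with 0 of 4 passing by limma-trend (2 of 4 at an unadjusted p under 0.05, 0 by limma-voom). The 5 keratinocyte markers that define skin summed to 6253.2 to 11674.3 and 12335.9 to 13878.9 FPKM, and the 5 fibroblast markers to 5099.5 to 6413.6 and 2431.0 to 4618.4, with no gene of either list passing. Adipocyte markers summed to 68.0 to 112.8 and 129.2 to 309.8 FPKM, with 2 of 5 higher (Adipoq and Cidec). The 7 neutrophil markers summed to 301.0 to 8918.2 and 4368.5 to 5728.0 FPKM, the 8918.2 being control replicate 3. Single genes weigh heavily in some sums. Over all 17 libraries S100a9 reached 14575.6 and S100a8 5143.8 FPKM, and no other neutrophil marker exceeded 297.9 (Retnlg). Krt14 reached 12732.1 FPKM, and no other keratinocyte marker that defines skin exceeded 2471.5 (Krt1). Macrophage sums overlapped, at 1715.9 to 2335.6 and 1944.5 to 2189.7 FPKM, as did those of skeletal muscle, endothelium and red blood cells. Of all these markers only Ly6g, Tnnc2 and Hba-a2 were at 0 in any library, in 2, 3 and 2 libraries. Tnnc2 did not exceed 0.335 FPKM in any library and was not among the genes tested.

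**Figure D3:**
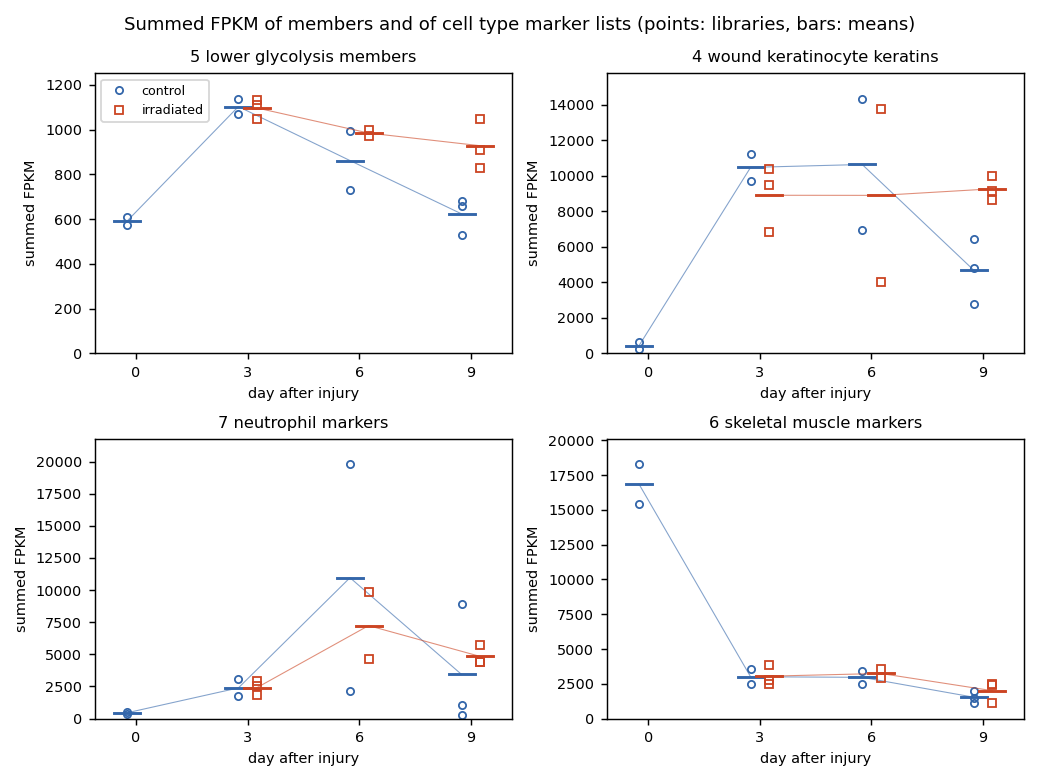
Summed FPKM in each library against day after injury for the lower glycolysis members and for wound keratinocyte, neutrophil and skeletal muscle markers, with circles for control, squares for irradiated libraries and bars for group means. The lower glycolysis sum is 529.6 to 680.0 in control and 826.6 to 1046.2 in irradiated skin at day 9, and the wound keratinocyte sum is also apart between the arms on that day.

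At day 3, 0 of the 35 genes passed by limma-trend or by limma-voom, where 1.85% of all genes passed, 1.56% as higher and 0.288% as lower. The median log2 difference was -0.09 over the members and -0.04 over all genes, and 3 members were under an unadjusted p of 0.05. In 3 members every irradiated library was above control and in 8 every one was below, against 15.9% and 25.1% of all genes. Adm had the largest positive log2 difference, 1.004 (SE 0.413, adjusted p = 0.360), and Slc2a3 the largest negative one, -0.98 (SE 0.406, adjusted p = 0.366). With only the compared groups in the fit 1 member passed, where 2.55% of all genes did, and with library quality weights also 1, where 8.13% did.

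At day 6, 0 of the 35 genes passed by limma-trend or by limma-voom, where 0.275% of all genes passed, 0.151% as higher and 0.124% as lower. The median log2 difference was 0.19 over the members and 0.02 over all genes, and 9 members were under an unadjusted p of 0.05. In 9 members both irradiated libraries were above both controls and in 5 both were below, against 19.8% and 16% of all genes. Adm was at 1.48 (SE 0.452, adjusted p = 0.181) and Slc2a3 at -1.35 (SE 0.445, adjusted p = 0.206). Without control replicate 2, 1 member passed, beside 0.196% of all genes, and without irradiated replicate 3, 2 did, beside 6.47%.

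With the 3 days averaged, Adm and Pfkl were higher and Slc2a3 was lower after irradiation, while 6.93% of all genes passed, 4.36% as higher and 2.57% as lower. The members' median was 0.22, against -0.01 over all genes. Scaled by the median of ratios or by quantiles, 1 member was higher and 1 lower. Leaving out 1 library gave between 1 and 8 passing members, with 1 without control day 3 replicate 1, control day 9 replicate 1, irradiated day 3 replicate 2, or irradiated day 9 replicate 1 or 3, and 6, 7 and 8 without control day 6 replicate 1, control day 9 replicate 3 and irradiated day 6 replicate 3. Of all genes, 3.73% to 5.57% passed in the first 5 of these fits and 6.71%, 8.45% and 11.1% in the last 3. Among the others P4ha1 was at 0.66 (adjusted p = 0.0680), Vegfa at 0.52 (adjusted p = 0.0871) and Gapdh at 0.28 (adjusted p = 0.0560). Markers of other cells moved in this comparison as well. All 5 red blood cell markers were lower after irradiation, with a sum of 155.5 to 209.7 FPKM in control and 2.03 to 8.34 in irradiated skin at day 3, and of 84.7 to 133.1 and 0.758 to 1.34 at day 6. Of the 7 macrophage markers 2 were higher (C1qa and Cd68), their list summing to 1422.6 to 1770.2 and 1536.9 to 3137.8 FPKM at day 3 and to 1117.3 to 1649.7 and 1772.3 to 2489.2 at day 6. Of the 5 adipocyte markers Adipoq was higher, and of the other lists no gene passed. The part of these markers in the averaged differences was not tested.

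Whether the effect of irradiation itself differed between day 9 and day 3 was tested as an interaction. No member passed by limma-trend, and 0% of all genes did. The same held by limma-voom. The members' median of that double difference was 0.59, against 0.04 over all genes, 32 of 35 were positive, and 18 were under an unadjusted p of 0.05, as were 2211 of the 15271 genes. The smallest adjusted p was that of Pfkp, at 0.81 (SE 0.165, adjusted p = 0.143). In 7 genes (Aldoc, Bnip3l, Egln1, Higd1a, Ldha, Pfkl and Slc2a1) every irradiated library was below control at day 3 and above control at day 9, as in 3.01% of all genes tested. For Slc2a1 the double difference was 1.45 (SE 0.320, adjusted p = 0.162), and for Pfkl 0.92 (SE 0.222, adjusted p = 0.189). With only the compared groups in the fit 4 members passed, where 1.43% of all genes did, and with library quality weights 20 did, where 18.3% of all genes did.

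**Figure D4:**
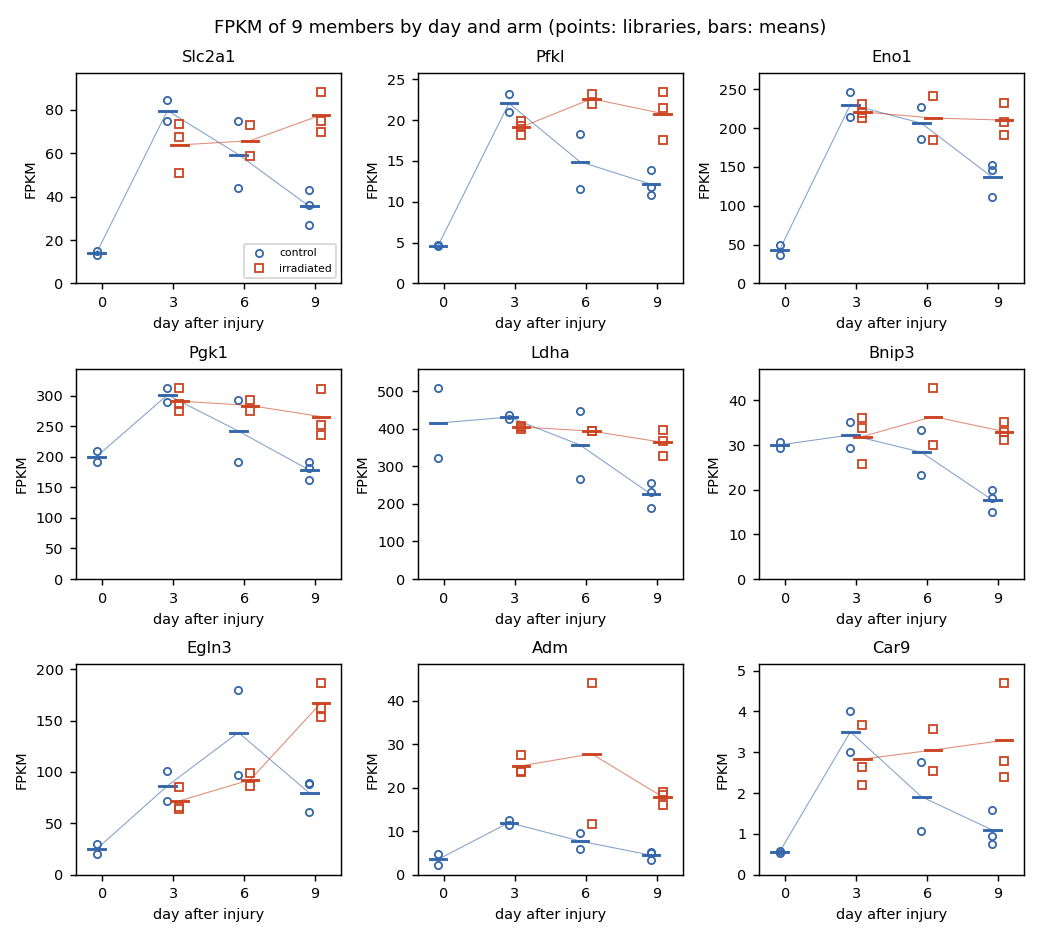
FPKM in each library against day after injury, for 9 members, with open circles for control and open squares for irradiated libraries, short bars for group means and thin lines joining the means. At day 9 every control library lies below every irradiated library in all 9 panels, and in the Adm panel this holds at day 3 and day 6 too.

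Each arm was also compared with itself between day 3 and day 9; the control comparison shares its day 9 libraries with the day 9 comparison of the arms. In control skin from day 3 to day 9, 16 members fell and 1 rose (P4ha2), against 18.2% of all genes changed, 8.02% higher and 10.2% lower. Their median was -0.50, against -0.07 over all genes. In 26 members every day 9 library was below every day 3 library, and in 1 every one was above, against 34.9% and 22.9% of all genes. All 5 genes of lower glycolysis fell, with Gapdh at -0.91 (adjusted p = 0.00189), Pkm at -0.91 (adjusted p = 0.00332), Pgam1 at -0.86 (adjusted p = 0.00800), Eno1 at -0.76 (adjusted p = 0.0132) and Pgk1 at -0.76 (adjusted p = 0.0105). So did 4 of 5 of upper glycolysis (Pfkl, Pfkp, Tpi1 and Gpi1) and 3 of 4 of glucose uptake, where Slc2a3 was at -1.93 (adjusted p = 0.00830), Slc2a1 at -1.16 (adjusted p = 0.00756) and Hk1 at -0.58 (adjusted p = 0.00648). Ldha (-0.94, adjusted p = 0.0132), Pdk1, Car9 and Bnip3 fell too. P4ha2 rose by 1.13 on the log2 scale (adjusted p = 0.0464). Without replicate 1 or without replicate 3 of control day 3, 4 members passed, beside 8.31% and 1.96% of all genes, and with library quality weights 26 did, beside 41.5%. Cell type markers moved between the same libraries, and their part in these changes was not tested. Fibroblast markers summed to 882.4 to 1341.6 FPKM at day 3 and 5099.5 to 6413.6 at day 9, with 3 of 5 higher. Adipocyte markers summed to 210.6 to 223.9 and 68.0 to 112.8 FPKM with 3 of 5 lower, keratinocyte markers to 13897.1 to 14438.6 and 6253.2 to 11674.3 with 1 of 5 lower, and skeletal muscle markers to 2484.5 to 3528.8 and 1099.9 to 2003.3 with 1 of 5 tested lower. The wound-edge keratins summed to 9723.8 to 11225.5 and 2752.7 to 6450.7 FPKM with 0 of 4 passing (2 under an unadjusted p of 0.05), and no neutrophil, macrophage, endothelial or red blood cell marker passed.

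In irradiated skin over the same days, 1 member rose and 0 fell, against 0.963% of all genes changed, 0.38% higher and 0.583% lower. The median was 0.01 over the members and -0.01 over all genes. In 7 members every day 9 library was above every day 3 library and in 10 every one was below, against 13.9% and 17.7% of all genes. The gene that rose was Egln3, from 66.2, 63.8 and 85.1 FPKM to 186, 162 and 153, a log2 difference of 1.22 (SE 0.238, adjusted p = 0.0377). It was lost without any of the 6 libraries in turn (adjusted p from 0.0699 to 0.157). Gapdh was at -0.32 (adjusted p = 0.223), Pkm at -0.43 (adjusted p = 0.144), Ldha at -0.16 (adjusted p = 0.749) and Slc2a1 at 0.29 (adjusted p = 0.546). The irradiated comparison shares no library with the control one, and the difference between them is the interaction above, in which no gene passed.

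**Figure D5:**
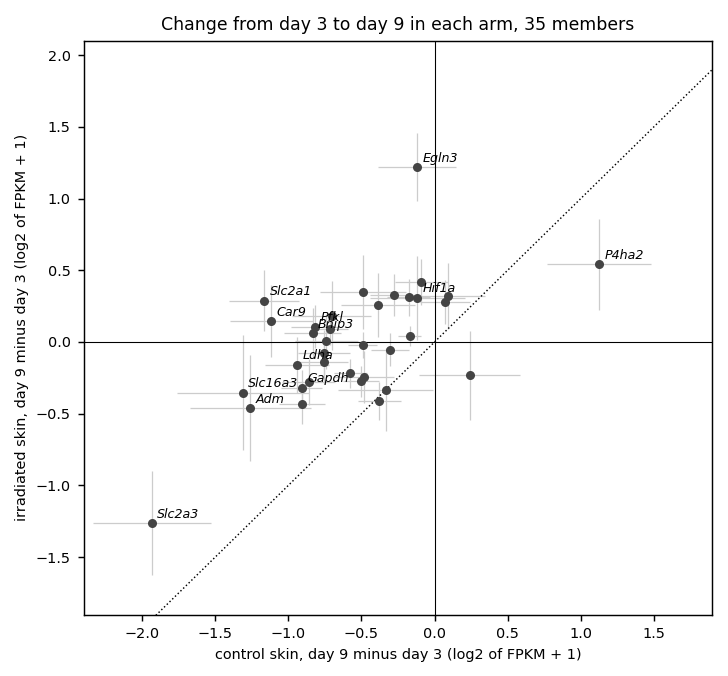
Log2 difference of each of the 35 genes from day 3 to day 9 in control skin (horizontal) and in irradiated skin (vertical), with bars of 1 standard error and a dotted line where both would be equal. Most points lie left of 0 on the horizontal axis, 4 of 35 being positive there, and are spread on both sides of 0 on the vertical axis, 18 of 35 being positive.

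Against day 0, control skin at day 3 had 20 members higher and 1 lower, where 38.1% of all genes passed, 25.8% higher and 12.4% lower. The members' median was 0.62. The median of all genes was 0.16 here and 0.00 after median-of-ratios scaling, under which 14 members were higher and 1 lower. The largest rises were in Slc2a1 at 2.41 (adjusted p = 6.02e-05), Eno1 at 2.40 (adjusted p = 2.74e-05), Pgam1 at 2.34 (adjusted p = 2.74e-05), Pfkl at 2.04 (adjusted p = 2.90e-05) and Hif1a at 2.002 (adjusted p = 0.00107). Egln3, Ddit4, Slc2a3, Adm, Car9, Higd1a, Pfkp, Aldoc, Hk1, Ndrg1, Bnip3l, Ankrd37, Pgk1, Pkm and Pdk1 rose too, by 0.44 (Pdk1) to 1.76 (Egln3). Hk2, the hexokinase of muscle and fat, fell, from 37.8 and 26.6 FPKM to 19.5 and 20.3, at -0.65 (adjusted p = 0.0371). Without control day 3 replicate 1, or with only the compared groups in the fit, 13 members passed, beside 22.5% and 13% of all genes.

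At day 6, 15 members were higher than at day 0 and 3 lower, where 35.3% of all genes passed, 21.1% higher and 14.2% lower. The members' median was 0.53 and that of all genes 0.11. The lower genes were Hk2 at -0.89 (adjusted p = 0.00885), Gpi1 at -0.49 (adjusted p = 0.0128) and Gapdh at -0.41 (adjusted p = 0.0493). Eno1 was at 2.24 (adjusted p = 2.36e-05), Egln3 at 2.39 (adjusted p = 1.28e-04) and Hif1a at 2.02 (adjusted p = 0.00114). With only the compared groups in the fit, 2 members passed, beside 2.36% of all genes.

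At day 9, 14 members were higher than at day 0 and 7 lower, where 48.4% of all genes passed, 30.4% higher and 18% lower. The members' median of 0.16 was then level with that of all genes, 0.15, and under median-of-ratios scaling 10 were higher and 8 lower. Hif1a (1.88, adjusted p = 5.67e-04), Egln3 (1.64, adjusted p = 3.55e-04), Eno1 (1.64, adjusted p = 2.46e-05) and Pgam1 (1.48, adjusted p = 5.08e-05) were still above day 0. The 7 lower genes were Hk2 (-1.13, adjusted p = 7.45e-04), Gapdh (-0.996, adjusted p = 1.21e-04), Ldha (-0.85, adjusted p = 0.00691), Bnip3, Gpi1, Tpi1 and Mxi1. Levels of cell type markers and mitochondrial RNA were apart at day 0 too. Skeletal muscle markers summed to 15417.1 to 18305.1 FPKM at day 0, above the 2334.8 to 4405.8 FPKM of keratinocyte markers, and to 2484.5 to 3528.8 at day 3 in control skin, with 5 of 5 tested lower. The wound-edge keratins summed to 234.1 to 613.5 FPKM at day 0 and 9723.8 to 11225.5 at day 3, with 4 of 4 higher, and keratinocyte markers stood at 13897.1 to 14438.6 FPKM at day 3, with 3 of 5 higher. Of the others, 2 of 7 neutrophil, 2 of 5 endothelial and 1 of 7 macrophage markers were higher at day 3. Mitochondrially encoded genes took 21.7% to 31.8% of summed FPKM at day 0 and 8.33% to 12.6% in the other libraries. The part of these shifts in the changes from day 0 was not tested.

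Other genes of the same pathways were counted from lists that hold no member. At day 9, of 14 tested genes of the HIF machinery 0 passed by limma-trend (3 under an unadjusted p of 0.05, 0 by limma-voom), with a median log2 difference of -0.03. Epas1, which encodes the alpha subunit HIF2, was at 0.10 (adjusted p = 0.878), and Arnt, the common partner, at -0.01 (adjusted p = 0.985). Vhl, which marks HIF for breakdown, was at -0.32 (adjusted p = 0.124), and Hif1an, which blocks its activity, at 0.10 (adjusted p = 0.624). At day 6 the 2 irradiated libraries of Epas1 were 32.7 and 117 FPKM, against 26.7 and 31.5 in control.

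Of 28 other HIF target genes 1 was higher at day 9 and 0 lower, with a median of 0.12. It was Ak4, which encodes a mitochondrial adenylate kinase, at 4.77 to 6.58 FPKM in control and 10.0 to 12.0 in irradiated skin, a log2 difference of 0.85 (SE 0.215, adjusted p = 0.0426). Of 22 other sugar genes 0 were higher and 1 lower, Pdk3, a relative of Pdk1, at -0.23 (adjusted p = 0.0447), with a median of 0.20, while 0 of the 22 passed by limma-voom. Of 14 genes around the citrate cycle 1 was higher, Pcx, which encodes pyruvate carboxylase, at 4.29 to 6.66 FPKM in control and 10.5 to 17.3 in irradiated skin (log2 difference 1.18, SE 0.281, adjusted p = 0.0352), with a median of 0.17. The 5 table entries of the enzyme forms left out of the members (Pfkm, Aldoa, Pgam2 and Eno3) had 0 passing (1 under an unadjusted p of 0.05, 0 by limma-voom).

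At days 3 and 6 no gene of these 5 lists passed by limma-trend or by limma-voom, while at day 6 the list of other HIF targets had 10 of 28 under an unadjusted p of 0.05. Averaged over the days, Hk3, the hexokinase of white blood cells, was higher after irradiation at 0.996 (adjusted p = 0.0224), in the comparison in which 2 of 7 macrophage markers were also higher. So was Pdk4, a kinase of the Pdk1 family that fasting induces, at 1.099 (adjusted p = 0.0382). In control skin from day 3 to day 9, 12 of 14 citrate cycle genes fell (median -0.40). So did 7 of 22 other sugar genes, 4 of 28 other HIF targets and 2 of 14 genes of the HIF machinery, while 1 HIF target, Plod2, rose. Over all genes 10.2% fell and 8.02% rose there, with a median of -0.07. Ak4 was at -1.01 (adjusted p = 0.0144), Pcx at -1.28 (adjusted p = 0.0164) and Pdk4 at -2.43 (adjusted p = 0.00734). In irradiated skin over the same days Pdk4 was the 1 gene of these lists that passed, at -2.66 (adjusted p = 0.023).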

How the data were processed

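The authors deposited 1 table of FPKM values for 34140 genes in 17 libraries of skin RNA. The submitters' processing notes name HISAT2 2.2.1 and the mm10 build, while the counting tool and gene annotation are not named in the sources used. FPKM values multiplied by GENCODE M21 exon length gave whole fragments (within 0.01) in every library for 31471 of the 34067 genes with a length. Counted by single value, 90.9% of the nonzero values of genes with a length were whole. The depths stated above came from the same step. Of the members, 32 were whole in every library, while Mxi1, Ndrg1 and Pgam1 were not, and their fragments were rounded for limma-voom.

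The deposited FPKM were put on the log2(FPKM + 1) scale, and a model of 1 mean for each of the 7 groups was fitted by limma-trend (limma 3.58.1 in R 4.3.3) over the 15271 genes at 1 FPKM or more in at least 2 libraries. P-values were adjusted by Benjamini and Hochberg over those genes, and the method was tested on simulated data first. The alternatives were other pseudocounts (0.1, 5), no filter or a minimum of 5 FPKM, median-of-ratios, nuclear-gene and quantile scaling, only the groups compared, a replicate block, library quality weights, limma-voom on recovered fragments, and leaving out each library in turn. Near-identical copies were found with minimap2 2.31-r1302 (at least 95% identity over 300 bases).

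The members, roles, pathway and marker lists were chosen with earlier results of these data known. Every library's value is given for members that passed in a comparison of the arms and were among the 14 largest differences at day 9, and for Hif1a, Vegfa and Gapdh; at most 4 passing genes were named for a pathway list and comparison, with Epas1, Vhl, Hif1an and Arnt always. Pdk1 and Ldha were given in each library at day 9 after their values were seen.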

Additional observations from a re-analysis of the deposited data

How the results depend on the processing

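Over the 35 genes and all the comparisons, the 93 values that passed kept direction and call in 1197 of 1483 refits, lost the call in 286 and reversed in 0. The 257 that did not pass gained a call in 105 of 4612 refits. The number of members passing moved by more than 1.5 times in the comparisons listed below for the filter, group and weight settings. For leaving out 1 library, the ranges given include counts that did not move by that much. The causes of these moves were not tested. With no filter on low values 7 of 35 passed at day 9 (12 as reported), where 1.56% of all genes did (5.38% as reported). Averaged over days 1 passed (3), beside 2.72% of all genes (6.93%). From irradiated day 3 to day 9, 0 passed (1), beside 0.193% (0.963%). With a minimum of 5 FPKM 5 passed averaged over days, beside 9.02%. With only the groups compared 1 passed at day 3 (0), beside 2.55% of all genes (1.85%), and 4 in the interaction (0), beside 1.43% (0%). From control day 0, 13 passed at day 3 (21), beside 13% (38.1%), and 2 at day 6 (18), beside 2.36% (35.3%). In the same setting 3 passed from irradiated day 3 to day 9, beside 4.31%. With library quality weights, which raised the calls over all genes in these comparisons too, 1 passed at day 3 (8.13% of all genes), 25 at day 9 (36.7%), 20 in the interaction (18.3%), 26 from control day 3 to day 9 (17, with 41.5%) and 11 from irradiated day 3 to day 9 (22.6%). Leaving out 1 library at a time gave 0 to 2 at day 6, 0 to 12 at day 9, 1 to 8 averaged over days, 0 to 0 in the interaction, 13 to 16, 12 to 17 and 15 to 21 from control day 0 to days 3, 6 and 9, 4 to 17 from control day 3 to day 9, and 0 to 0 from irradiated day 3 to day 9. Where a group was left with 1 library, that library was assumed to vary like the other groups.

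With the replicate number as a block, 8 members passed at day 9, beside 3.1% of all genes, and 2 averaged over days, beside 5.82%. At day 3 (1.49% of all genes), at day 6 (0.203%) and in the interaction (0%), 0 members passed. From control day 0 to days 3, 6 and 9, 21, 17 and 21 passed, beside 38.5%, 35.2% and 48.4% of all genes. The block left 17 from control day 3 to day 9 (18.4%) and 1 from irradiated day 3 to day 9 (0.936%). Its consensus correlation was -0.10. Whether the numbers pair the libraries is not stated in the labels. At day 9 the deviations of same-numbered libraries correlated at -0.08, 0.30 and -0.12, and not every library correlated best with its own number. With so few libraries in a group, these correlations cannot show whether the numbers pair them.

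Depth limits the low members most: Car9 and Ankrd37 had as few as 34 and 38 recovered fragments in a library.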

Other observations

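The genes around the citrate cycle, 14 in number, lay below day 0 in most cases. In control skin 10 of 14 were lower at day 3 (median log2 difference -0.54), 12 at day 6 (median -0.74) and 13 at day 9 (median -0.96). Over all genes 12.4%, 14.2% and 18% were lower on these days, with medians of 0.16, 0.11 and 0.15. The glycolytic enzyme forms left out of the members (Pfkm, Aldoa, Pgam2 and Eno3) have 5 table entries, 2 of them for Aldoa. All 5 were lower than at day 0 on these 3 days, with medians of -2.43, -2.29 and -3.17. The sum of skeletal muscle markers was 15417.1 to 18305.1 FPKM at day 0 and 1099.9 to 2003.3 in control skin at day 9. Pdk4 was at 187 to 378 FPKM at day 0 and 2.82 to 3.60 in control skin at day 9. The part of the muscle markers in these values was not tested.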
